A study of Mus musculus with 12 samples.

Results

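Enzymes that build the sugar chains of glycoproteins, glycolipids and proteoglycans were examined as a family in bone-marrow-derived macrophages (BMDMs), macrophages grown in culture from marrow precursors. The family was taken by gene symbol: the transferases that begin, branch, extend and cap glycans (Galnt, C1galt1, Gcnt, Mgat, B3gnt, B3galt, B4galt, St3gal, St6gal with St6galnac, St8sia and Fut), those that start or polymerise glycosaminoglycans (Ext, Extl and Chsy) and the sulfotransferases of glycosaminoglycans and other glycans (Ndst, Hs2st, Hs3st, Hs6st and Chst). Of 124 genes with such a symbol in the table of 55401 genes, 72 reached a value of at least 10 in at least 3 of the 12 libraries and are the members described here. They were thus chosen by symbol and by their measured level, and levels are given as a description. The rule used no difference between constructs, but the family was chosen with earlier results of these data known. Its shares of called genes are therefore not those of an independently chosen set. Of the 72, 66 were at 10 or more in all 12 libraries and 71 are protein-coding, the other being Galnt6os, an antisense transcript at the Galnt6 gene.

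All 12 libraries are of total RNA from cells of Irx3-/- mice of strain C57BL/6J, differentiated for 7 days with 20 nM M-CSF, infected with adeno-associated virus and then given 100 ng/ml LPS, a bacterial cell wall component that activates macrophages, for 4 h. There were 3 libraries for each of 4 viral inserts: GFP, which served as control, the transcription factor IRX3 in its wild-type form (IRX3_WT), and its forms IRX3_S361A and IRX3_S389A, in which alanine takes the place of a serine. Since the control cells too were Irx3-/- and stimulated, all comparisons are between inserts under LPS in cells without endogenous Irx3, and none is with unstimulated cells. Nothing in the labels says whether the 3 libraries of a group came from separate animals or cultures, so p-values measure only the spread between these libraries, which may be technical. Values are normalized counts, that is, the deposited values, which have the form of gene counts divided by 1 size factor per library. Differences are on the scale log2(normalized count + 1), which understates changes of weakly expressed genes. A member is called where its limma p, adjusted by Benjamini-Hochberg over all 13369 genes tested, is under 0.05, and it is said to have risen or fallen only then.

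Irx3 RNA separated the GFP libraries from those with an IRX3 insert, as labelled, but counts per gene cannot show which serine was changed. Irx3 had no read in the GFP libraries and a mean of 177 ± 16.3 (SD, n = 3) normalized counts with IRX3_WT, 349 ± 21.5 with IRX3_S361A and 187 ± 20.2 with IRX3_S389A. Every IRX3_S361A library held more Irx3 than any IRX3_WT library, so wherever these groups are compared, the amount of Irx3 RNA and the changed serine cannot be told apart. The mean with IRX3_S361A was also well above that with IRX3_S389A, so the same limit holds between the mutants. Deposited totals ran from 17325311 to 19796325 and were lowest in the GFP group, and recovered reads ran from 17149058 to 20108002. Macrophage markers were abundant (8 of 8, with Adgre1, the gene of F4/80, at a mean of 37510.3 in GFP). Their sum was 359792 to 370143 normalized counts with GFP and 389296 to 393725 with IRX3_WT. With IRX3_S361A the sum was 416752 to 429929 and with IRX3_S389A 393368 to 406993. Ly6g, Elane and Mpo of neutrophils were at 0 in all 12 libraries. The summed neutrophil list of 6 genes was 23.2 to 34.3 normalized counts with GFP, 41.0 to 62.3 with IRX3_WT, 27.3 to 48.7 with IRX3_S361A and 29.5 to 47.3 with IRX3_S389A. The stromal list of 5 genes, nearly all of it Pdgfrb, summed to 84.7 to 119, 237 to 248, 125 to 170.0 and 190.1 to 209 in the same order. The dendritic list of 5 genes, mostly Xcr1, summed to 115 to 143, 139.8 to 158, 129 to 145 and 135 to 176. The lymphocyte list summed to at most 10.2. These lists moved with the constructs in part, and their part in the results below was not tested.

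As background, glycan chains are made stepwise in the endoplasmic reticulum and Golgi, each enzyme adding 1 sugar or sulfate in a set linkage to the product of the enzyme before it. Branching enzymes set how many antennae a glycan has, and sialic acid, fucose and sulfate at the tips make the ligands of selectins and Siglecs. On macrophages and other leukocytes, such ligands govern rolling on endothelium, receptor clustering and recognition by lectins, while heparan and chondroitin sulfate chains hold chemokines and growth factors at the cell surface.

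The 2 most abundant members per length were sialyltransferases, while the other 9 of that group ranked between 9 and 71 of the 72. Length here is that of all annotated exons of a gene, each base counted once, so the ranks depend on the annotation too. St3gal5, which makes the ganglioside GM3, averaged 1910.1 normalized counts per kb of exon over the 12 libraries and ranked first. St3gal1, which caps O-glycans with sialic acid, followed at 1395 per kb. The lactosylceramide synthase genes B4galt5 and B4galt6 stood at 841 and 533 per kb, and the N-glycan genes Mgat2, Mgat4b and Mgat1 at 658, 607 and 454. Galnt7, which extends O-glycosylation to neighbouring sites, was the highest of the initiating enzymes at 491 per kb. Within the construct groups the order of the first pair held beyond the spread, since St3gal5 per kb was 2034 ± 64.6 (SD, n = 3) and St3gal1 1097 ± 46.7 with GFP, and 2064 ± 86.1 and 1557 ± 19.1 with IRX3_WT. Gcnt1, averaged over constructs that differ widely in it, stood at 69.3 per kb, and at the low end were Chst3, Gcnt7, Chst15, St8sia6 and Galnt9, between 1.75 and 3.96 per kb. Together the 72 members held 0.280 to 0.304% of each deposited total.

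**Figure D1:**
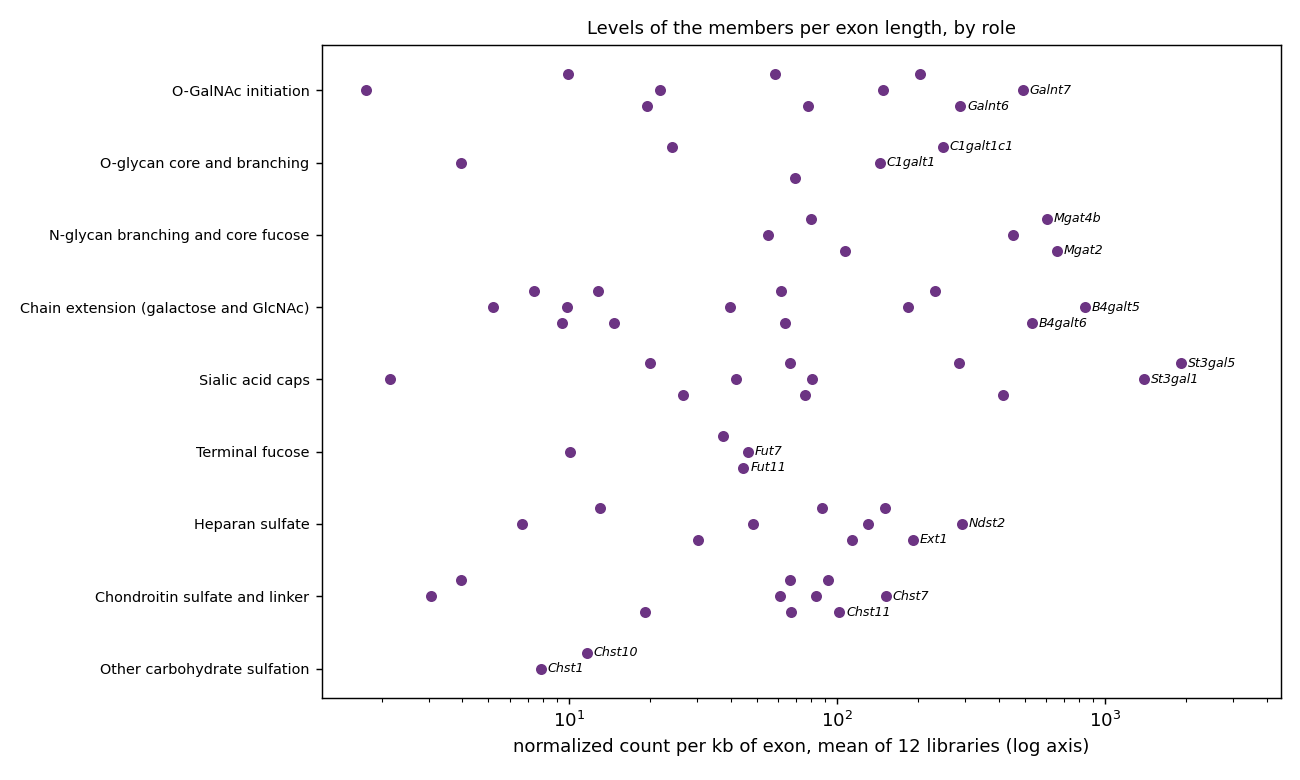
Normalized count per kb of exon (mean of 12 libraries, log axis) of the members in each role, each point a gene, with the highest 2 of each role named. The top 2 of all points are sialic acid caps (St3gal5 at 1910.1 and St3gal1 at 1395 per kb) and sulfotransferases outside the glycosaminoglycans the lowest maximum (Chst10 at 11.6 per kb). The antisense transcript Galnt6os is not drawn.

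The 52 genes that did not reach the level included 31 with no read in any library. Among these were Gcnt3, Mgat3, Fut1, Fut2, Fut9, St6gal2 and Chst4, enzymes known mainly from epithelium, brain or endothelium. In counting error alone, no read allows up to 3 reads per library, or 2.67 to 3.41 normalized counts. Just outside the threshold lay B4galt2, which reached 10 in 2 libraries (11.4 and 14.8, both IRX3_WT) and was between 0.994 and 8.13 elsewhere, and B3galt2, between 1.03 and 9.15. Just inside lay Galnt9, a member through the GFP libraries alone (10.2, 11.97 and 11.6), with 0, 1.04 and 0 in IRX3_WT, 0, 6.96 and 9.05 in IRX3_S361A and 5.17, 5.03 and 2.03 in IRX3_S389A. Because the GFP group alone admitted it, no test of it is read. Gcnt7 was at 10 or more in 4 libraries and ranged from 3.12 to 18.3, with all groups overlapping.

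With IRX3_WT against GFP, 24 of 71 members fell and 13 rose, Galnt9 being left out because its GFP values admitted it. Rises and falls occurred together in 6 of 9 role groups: the O-glycan branching gene Gcnt1 fell while its relative Gcnt2 rose, Mgat5 fell while Mgat4a rose, St6gal1 fell while St3gal3 and St3gal1 rose, and Extl3 fell while Ext1 rose. The largest change among the 71 was the fall of Gcnt1 by 2.71 on the log2 scale, and the largest rise that of St3gal3 by 0.84. The share called, 52.1% of the 71, stands beside 39.6% of all genes tested. Of all genes, 21.0% rose and 18.6% fell. At 1.5-fold or more 16 of the 71 members were called (10 lower, 6 higher), beside 1556 of all 13369 genes (11.6%). The median difference of the 71 was -0.08 and that of all genes -0.01. Members had a median level close to that of all genes tested (289 and 313 normalized counts). Under scaling to equal library totals, which brings the median of all genes to -0.18 in this comparison, 10 higher and 38 lower of all 72 members were called, Galnt9 included. Over the 4 groups together, 46 of the 71 were called, beside 44.2% of all genes. In bulk RNA, fewer cells of a type and less RNA per cell cannot be told apart.

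**Figure D2:**
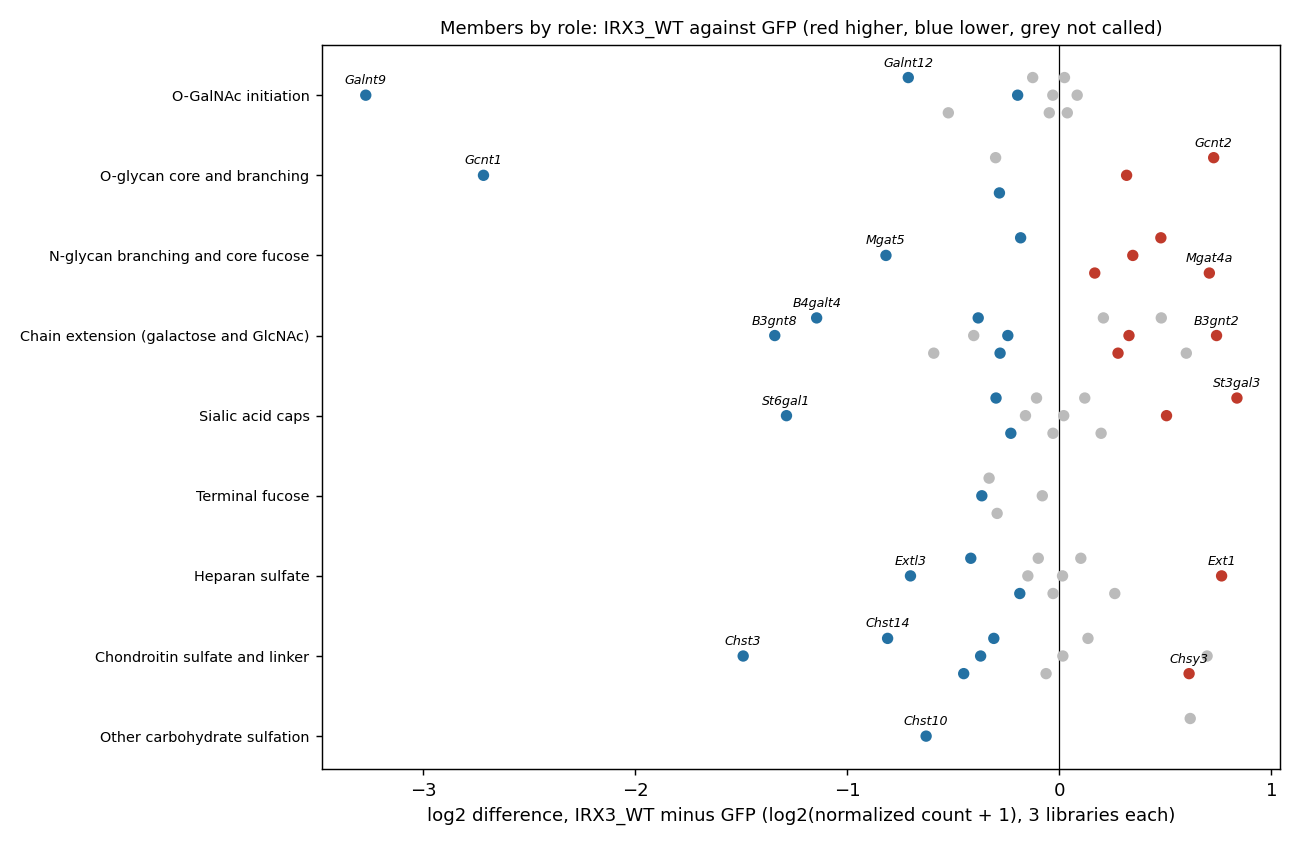
Log2 difference of IRX3_WT minus GFP for each member (points), in rows by role, with names for called differences of at least 1.5-fold. Red points rose, blue points fell and grey points were not called, and rises and falls stand side by side in the rows of branching, extension, sialic acid and heparan sulfate. Galnt9, at the far left, entered the family through its GFP values alone.

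O-glycans begin with N-acetylgalactosamine added by the Galnt family, of which 10 were measured. Galnt9 aside, 2 of 9 fell with IRX3_WT, beside 18.6% of all genes, and both calls ended when 1 library was left out. Galnt1, Galnt2, Galnt3, Galnt4, Galnt7, Galnt10 and Galnt11 were not called for IRX3_WT against GFP, and Galnt7, the most abundant, had 2414 to 2498 normalized counts with GFP and 2445 to 2708 with IRX3_WT. Galnt12 fell from 83.5, 57.1 and 57.0 normalized counts with GFP to 38.4, 50.9 and 30.7 with IRX3_WT (-0.71 on the log2 scale, limma adjusted p = 0.0238), a call that ended without GFP replicate 1 (adjusted p = 0.155), IRX3_WT replicate 1 (0.0579) or IRX3_WT replicate 3 (0.129). Galnt6 fell by 0.20 (limma adjusted p = 0.008), also lost without GFP replicate 3 (0.091) or IRX3_WT replicate 2 (0.0722). Exons of Galnt2 are shared with other annotated genes over 90.0% of their length, so its values (34.7 to 62.2 with GFP, 28.6 to 34.1 with IRX3_WT) are uncertain.

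The next step, galactose on the first sugar, is made by C1galt1 with its chaperone C1galt1c1 (Cosmc), and these moved oppositely. C1galt1 fell from 1008 ± 77.0 (SD, n = 3) to 829 ± 66.5 normalized counts, by 0.28 on the log2 scale, and the call ended without IRX3_WT replicate 2 (limma adjusted p = 0.051). C1galt1c1 rose from 291, 317 and 333 to 399, 358 and 418, by 0.32 (limma adjusted p = 0.00436).

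Gcnt1, the core 2 enzyme that opens the branch of O-glycans on which selectin ligands are built, had the largest difference among the 66 members at 10 or more in all 12 libraries. Its normalized counts were 1002, 1006 and 1035 with GFP, 155, 145 and 162 with IRX3_WT, 221, 215 and 198 with IRX3_S361A and 219, 223 and 208 with IRX3_S389A. Every IRX3 library lay far below every GFP library, the IRX3_WT libraries lay below all mutant libraries, and the mutant groups overlapped. The difference from GFP was -2.71 with IRX3_WT (SE 0.09, limma adjusted p = 2.34e-24), -2.26 with IRX3_S361A and -2.22 with IRX3_S389A (SE 0.09 each), comparisons that share the GFP libraries. The gene (ENSMUSG00000038843.18, chromosome 19, 17326141 to 17372844 in GRCm38, minus strand) has 3 starts in RefSeq, and the table does not tell their use apart. Because Gcnt1 is the member with the largest change, the 120 bases before each start are shown, from RefSeq on GRCm38.p6, minus strand, 5′ to 3′.
Gcnt1 start 1, chr19:17372845-17372964: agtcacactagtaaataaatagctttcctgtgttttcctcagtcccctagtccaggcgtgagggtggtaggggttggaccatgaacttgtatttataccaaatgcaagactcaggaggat
Gcnt1 start 2, chr19:17356668-17356787: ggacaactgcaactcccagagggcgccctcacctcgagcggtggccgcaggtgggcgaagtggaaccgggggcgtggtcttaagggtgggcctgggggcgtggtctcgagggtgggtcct
Gcnt1 start 3, chr19:17339506-17339625: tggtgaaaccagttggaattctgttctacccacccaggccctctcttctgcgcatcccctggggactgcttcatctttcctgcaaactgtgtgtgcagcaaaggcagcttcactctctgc
No base is in capitals in these windows because none holds ACANNTGT (N is any base), the published core of Iroquois binding sites, which reads the same on both strands and always contains the E-box CANNTG.

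Of the 72 members, 57 had at least 1 RefSeq promoter, with 76 windows of 250 bases before a start, and 3 of these windows (3.95%) held ACANNTGT, against 6.31% of all 32851 windows. The 3 belong to Chst14, C1galt1 and Galnt9. Chst14 and C1galt1 both fell with IRX3_WT, the call of C1galt1 being lost without IRX3_WT replicate 2. Whether a match goes with a fall was not tested. The windows of Chst14 and C1galt1 are shown with the match in capitals (both on the plus strand, RefSeq on GRCm38.p6).
Chst14, chr2:118926247-118926496: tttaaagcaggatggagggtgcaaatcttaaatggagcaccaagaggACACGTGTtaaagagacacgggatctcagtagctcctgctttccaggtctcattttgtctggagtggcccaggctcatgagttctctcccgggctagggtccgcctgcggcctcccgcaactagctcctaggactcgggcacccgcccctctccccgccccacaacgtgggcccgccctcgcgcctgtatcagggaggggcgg
C1galt1, chr6:7844974-7845223: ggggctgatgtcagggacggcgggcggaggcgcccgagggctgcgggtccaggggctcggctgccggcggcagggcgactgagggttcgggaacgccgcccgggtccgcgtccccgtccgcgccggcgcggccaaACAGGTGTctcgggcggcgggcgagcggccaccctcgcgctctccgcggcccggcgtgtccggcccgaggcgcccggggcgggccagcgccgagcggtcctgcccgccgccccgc
The match ends 196 bases before the start of Chst14 and 108 bases before that of C1galt1. A match describes these letters only, and its absence from the windows of Gcnt1 is no statement about binding.

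Gcnt2, which adds the I branch to chains of repeated lactosamine, went the other way. Its normalized counts were 108, 141 and 149.6 with GFP, 208, 214 and 234 with IRX3_WT, 129, 152 and 161 with IRX3_S361A and 190.1, 185 and 185 with IRX3_S389A. The IRX3_WT and IRX3_S389A groups lay above GFP without overlap, while IRX3_S361A overlapped GFP. Gcnt2 rose by 0.73 with IRX3_WT (SE 0.13, limma adjusted p = 9.78e-06) and by 0.50 with IRX3_S389A (SE 0.13), and its difference of 0.16 with IRX3_S361A was not called (limma adjusted p = 0.412).

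**Figure D3:**
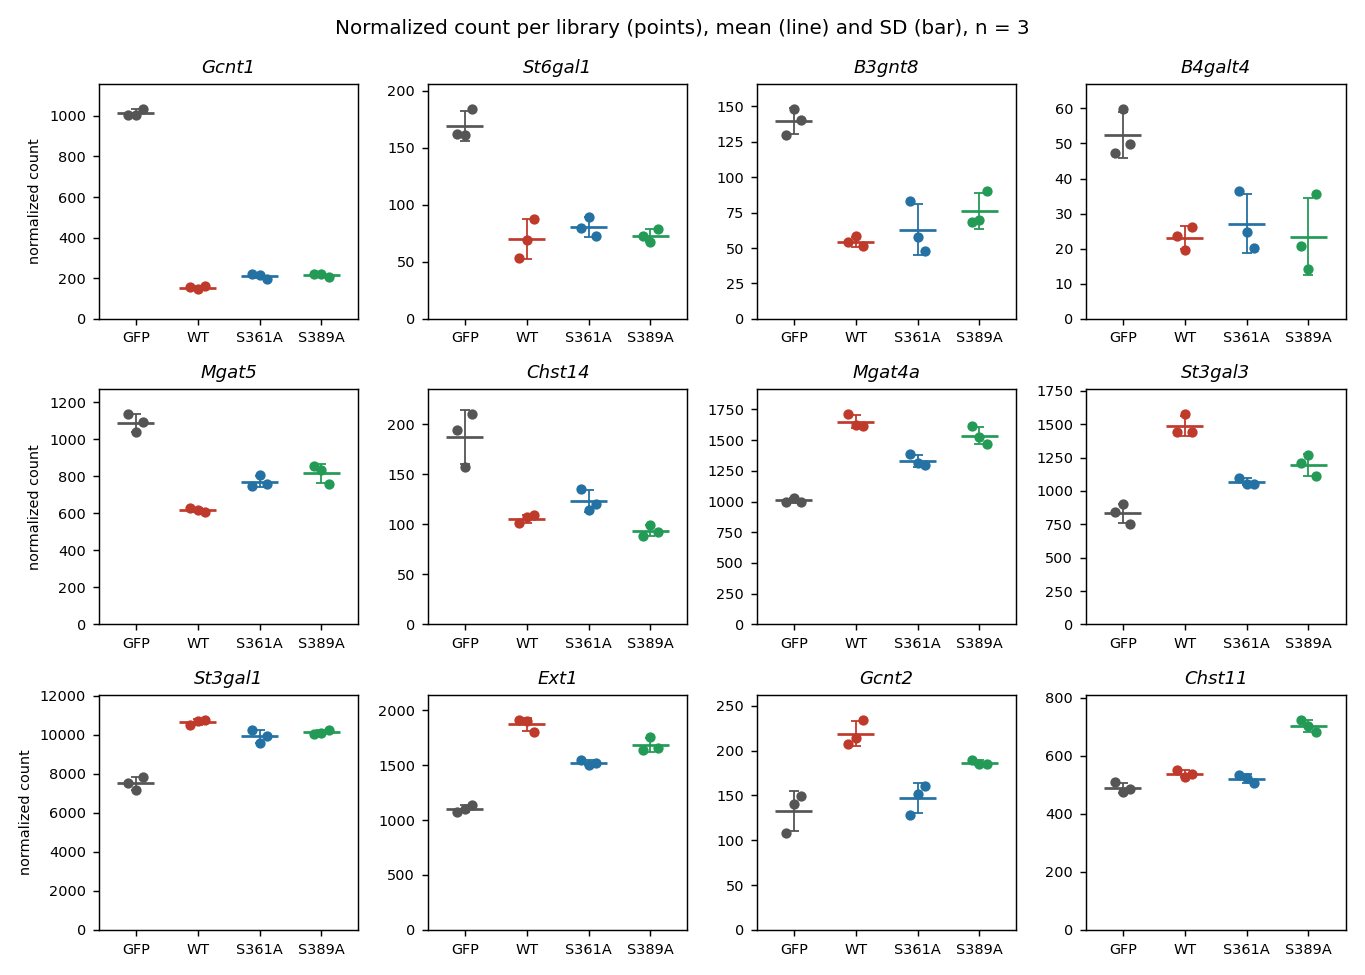
Normalized counts of 12 members in each library (points), with the mean (line) and SD (bar) of the 3 libraries of a construct, on axes that start at 0. Gcnt1, St6gal1, B3gnt8, Mgat5 and Chst14 sit lower in all IRX3 libraries than in GFP, Mgat4a, St3gal3, St3gal1 and Ext1 sit higher, and Chst11 is set apart in the IRX3_S389A libraries.

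All 6 members of the group of N-glycan branching and core fucose were called with IRX3_WT, 4 higher and 2 lower, beside 21.0% and 18.6% of all genes. Mgat4a, which adds an antenna to N-glycans and whose rise was the largest of the 6, had 995, 1032 and 1000.004 normalized counts with GFP, 1710.1, 1622 and 1616 with IRX3_WT, 1388, 1314 and 1295 with IRX3_S361A and 1613, 1527 and 1471 with IRX3_S389A. The groups did not overlap between any construct and GFP, and the IRX3_WT libraries lay above those of both mutants, narrowly so for IRX3_S389A. It rose by 0.71 with IRX3_WT (SE 0.05, limma adjusted p = 2.11e-14). Mgat5, which opens a different antenna that galectins bind once it is extended, moved in the opposite direction with 1134, 1039 and 1093 in GFP, 628, 617 and 606 in IRX3_WT, 749, 805 and 759.9 in IRX3_S361A and 853, 834 and 758 in IRX3_S389A. Here IRX3_WT was the lowest group and the mutants lay between it and GFP, overlapping each other. Mgat5 fell by 0.82 with IRX3_WT (SE 0.06, limma adjusted p = 6.32e-14). On chromosome 1 of GRCm38, Mgat4a (ENSMUSG00000026110.15, chromosome 1, 37439340 to 37541016) lies on the minus strand and Mgat5 (ENSMUSG00000036155.13, chromosome 1, 127205015 to 127488336) on the plus strand.

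The other N-glycan genes changed less. Mgat4b, the second gene of the Mgat4 activity, rose by 0.35 and Fut8, which adds the core fucose, rose by 0.48 on the log2 scale with IRX3_WT. Mgat2, which completes the biantennary core, fell by 0.18. Mgat1, the entry to hybrid and complex N-glycans, rose by 0.17 from 1893 ± 59.5 to 2127 ± 86.9 (SD, n = 3), but under equal library totals the difference was -0.0090, so the direction of so small a change depended on scaling.

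Chain extension followed. B3gnt8, which lengthens lactosamine chains on branched N-glycans in a complex with B3gnt2, had 129.9, 148 and 141 normalized counts with GFP, 54.1, 58.2 and 51.2 with IRX3_WT, 83.0, 57.6 and 48.2 with IRX3_S361A and 68.2, 69.4 and 90.4 with IRX3_S389A. All 9 IRX3 libraries lay below the GFP libraries, and IRX3_WT differed by -1.34 (SE 0.18, limma adjusted p = 1.14e-07). Its partner gene B3gnt2 rose instead, from 649, 705 and 665 with GFP to 1143, 1111 and 1123 with IRX3_WT, by 0.74 (SE 0.06, limma adjusted p = 3.46e-13). Other annotated transcripts cover 66.0% of the exon bases of B3gnt2, so part of these reads may belong to them. B4galt4, a galactosyltransferase of sulfated chains, had 47.3, 59.9 and 49.9 with GFP and 23.6, 19.7 and 26.2 with IRX3_WT, a difference of -1.14 (SE 0.29, limma adjusted p = 0.00176). The galactosyltransferase gene B4galt1, of broad use on glycoproteins, fell by 0.38, and of the lactosylceramide synthases B4galt5 rose by 0.28 while B4galt6 fell by 0.24. Of those at lower levels, B4galt3 rose by 0.33, and B3gnt3, which extends core 1 O-glycans, fell by 0.28, a call lost without either GFP replicate 1 or 2 or any IRX3_WT library (limma adjusted p 0.0574 to 0.172). B3galt4, B3gnt5, B3gnt7, B3gnt9 and B3gntl1, with group means between 16.0 and 68.9, were not called. In all, 5 of 13 extension genes fell and 3 rose, beside 18.6% and 21.0% of all genes.

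Among the 11 sialyltransferases, 3 fell and 2 rose with IRX3_WT, beside 18.6% and 21.0% of all genes. St6gal1, which puts the sialic acid bound by the Siglec CD22 and other lectins on N-glycans, had 162, 161 and 184 normalized counts with GFP, 53.2, 69.6 and 87.6 with IRX3_WT, 80.0, 89.5 and 72.4 with IRX3_S361A and 72.3, 67.4 and 79.3 with IRX3_S389A. The 3 IRX3 groups overlapped each other and all lay below GFP, and the IRX3_WT difference was -1.29 (SE 0.17, limma adjusted p = 4.42e-08). St3gal3, which places sialic acid on galactose in a different linkage, had 844, 899 and 755 with GFP, 1441, 1574 and 1444 with IRX3_WT, 1098, 1055 and 1053 with IRX3_S361A and 1209.7, 1272 and 1109 with IRX3_S389A. Every IRX3_WT library was above every other library for it, and it rose by 0.84 (SE 0.06, limma adjusted p = 3.07e-14). St3gal1 rose from 7524, 7187 and 7827 to 10519, 10698 and 10775, by 0.51 (SE 0.04, limma adjusted p = 9.79e-15), the largest gain of any member in normalized counts. In GRCm38 these are St6gal1 at ENSMUSG00000022885.16, chromosome 16, 23224740 to 23360350, St3gal3 at ENSMUSG00000028538.12, chromosome 4, 117932154 to 118134914 and St3gal1 at ENSMUSG00000013846.10, chromosome 15, 67102875 to 67176830.

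St3gal5, the GM3 synthase gene, was not called for IRX3_WT against GFP (5168 to 5504 with GFP and 5144 to 5546 with IRX3_WT), nor were St3gal2, St3gal4, St3gal6, St8sia4 and St8sia6. St6galnac4 and St6galnac6 fell by 0.30 and 0.23, calls that ended in fits without 1 library, with adjusted p up to 0.29 and 0.227 without IRX3_WT replicate 1, and that also ended without GFP replicate 3 (0.107 and 0.184) and for St6galnac6 without GFP replicate 1 (0.116). Of the 4 fucosyltransferases outside the N-glycan core, Fut11 fell by 0.36 (limma adjusted p = 0.00749). Fut7, which finishes selectin ligands with fucose, had 142, 122 and 126 with GFP and 96.5, 118 and 95.6 with IRX3_WT, groups that did not overlap but were not called (-0.33, limma adjusted p = 0.0639). Fut4 and Fut10 were not called.

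Of 10 heparan sulfate members 3 fell and 1 rose with IRX3_WT, 40% beside 39.6% of all genes, a share at the background. Ext1, which together with Ext2 forms the chain polymerase, had 1072, 1097 and 1137 normalized counts with GFP, 1913, 1904 and 1806 with IRX3_WT, 1547, 1501 and 1519 with IRX3_S361A and 1641, 1759 and 1659.5 with IRX3_S389A. No construct overlapped GFP, and Ext1 rose by 0.77 with IRX3_WT (SE 0.05, limma adjusted p = 5.69e-16). Its partner Ext2 had 797 to 865 with GFP and 767 to 861 with IRX3_WT and was not called (log2 difference -0.03, limma adjusted p = 0.758). Extl3, which starts the chain, had 1178, 1187 and 1213 with GFP, 716, 738 and 745 with IRX3_WT, 849, 820.0 and 770.0 with IRX3_S361A and 916, 938 and 892 with IRX3_S389A, lower in every IRX3 library. It fell by 0.70 with IRX3_WT (SE 0.06, limma adjusted p = 4.85e-13). In GRCm38, Ext1 is at ENSMUSG00000061731.9, chromosome 15, 53064038 to 53346159 and Extl3 at ENSMUSG00000021978.9, chromosome 14, 65052060 to 65149855. Extl2, a relative of Extl3, was not called. Of the sulfation enzymes, Hs2st1 fell by 0.42 and Ndst2 by 0.19, while Ndst1, Hs6st1, Hs3st3a1 and Hs3st3b1 were not called.

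In the chondroitin sulfate group 5 of 10 members fell and 1 rose with IRX3_WT, beside 18.6% and 21.0% of all genes. Chst14, which sulfates dermatan sulfate, had 195, 157 and 210.2 normalized counts with GFP, 101, 107 and 109 with IRX3_WT, 136, 114 and 121 with IRX3_S361A and 88.8, 99.6 and 92.5 with IRX3_S389A. All IRX3 libraries lay below the GFP range, and the IRX3_WT difference was -0.81 (SE 0.14, limma adjusted p = 7.35e-06). Chst3, a chondroitin sulfotransferase at a low level, had 41.8, 48.8 and 38.3 with GFP and 21.7, 12.5 and 11.4 with IRX3_WT (-1.49, SE 0.30, limma adjusted p = 0.000118). The polymerase gene Chsy3 rose from 116, 93.0 and 87.3 to 167, 153 and 133, by 0.61 (SE 0.14, limma adjusted p = 0.000347), and its relative Chsy1 was not called. The sulfotransferase gene Chst12 fell by 0.45. B4galt7 and B3galt6, which build the linker that joins the chain to its core protein, fell by 0.31 and 0.37, the second call being lost without GFP replicate 3 (limma adjusted p = 0.114) or IRX3_WT replicate 1 (0.0908). Outside these chains, Chst10, which makes the HNK-1 sulfated epitope, fell by 0.63 and Chst1 was not called (15.8 to 16.9 with GFP, 20.5 to 30.1 with IRX3_WT).

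IRX3_S361A was then set against IRX3_WT: 18 of 72 members were called (7 higher, 11 lower), 25.0% beside 15.5% of all genes (6.43% higher, 9.07% lower), with called log2 differences from -0.57 (Gcnt2) to 0.45 (Gcnt1). All were under 1.5-fold, while 268 of all 13369 genes were called at 1.5-fold or more. Under equal library totals the split was 13 higher and 10 lower. Lower with IRX3_S361A were Gcnt2 by 0.57 (limma adjusted p = 0.00104), St3gal3 by 0.47 (adjusted p = 2.39e-07), Mgat4a by 0.31, Ext1 by 0.30 and B3gnt2 by 0.27. Higher were Gcnt1 by 0.45 (adjusted p = 0.000283), Mgat5 by 0.32 and Hs2st1 by 0.30. These calls held in every fit without 1 library, and the IRX3_WT libraries are the same ones that enter the comparison with GFP. The heparan sulfotransferase gene Ndst1 was lower with IRX3_S361A (213, 217 and 198 against 274, 253 and 288 normalized counts, log2 difference -0.38), as was St8sia4, which makes polysialic acid (686, 721 and 749 against 884, 805 and 857, -0.24). Both had GFP values near those of IRX3_WT, 227 to 268 for Ndst1 and 890.5 to 937 for St8sia4. Chst7, a chondroitin sulfotransferase gene, was higher with IRX3_S361A (397 ± 5.33, SD, n = 3, against 299.5 ± 54.0, 0.42), a call lost without IRX3_WT replicate 1 (limma adjusted p = 0.0565). St3gal1 was lower by 0.10 and B3gnt3 higher by 0.31, calls that each ended in 8 of the 12 fits without 1 library (for St3gal1 all but those without GFP replicates 2 or 3, IRX3_S361A replicate 1 or IRX3_S389A replicate 3, for B3gnt3 all but those without GFP replicates 2 or 3 or IRX3_S389A replicates 1 or 3), with adjusted p up to 0.214 without IRX3_S361A replicate 2 for St3gal1 and 0.133 without IRX3_S361A replicate 1 for B3gnt3.

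For IRX3_S389A against IRX3_WT, 16 of 72 members were called (9 higher, 7 lower), 22.2% beside 15.3% of all genes (8.21% higher, 7.08% lower), all under 1.5-fold, a size at which 1.85% of all genes were called. Under equal library totals the split was 10 higher and 7 lower. The count fell to 10 without IRX3_S389A replicate 1. Higher with IRX3_S389A were Gcnt1 by 0.49 (limma adjusted p = 9.87e-05), Mgat5 by 0.40 (8.17e-06), Galnt6 by 0.33 and Extl3 by 0.32. St3gal3 was lower by 0.31 (0.000265) and Hs6st1, which sulfates heparan chains, by 0.23 (613, 647 and 616 against 693, 764 and 749.9 normalized counts). The calls of Ext1 (-0.15) and Fut8 (-0.24) ended without IRX3_WT replicate 1 (limma adjusted p = 0.1 and 0.165) and in 3 other such fits each, without IRX3_WT replicate 2 (0.0796 and 0.112) and IRX3_S389A replicate 3 (0.0783 and 0.151), and for Ext1 IRX3_S389A replicate 1 (0.128) and for Fut8 IRX3_S389A replicate 2 (0.12). St3gal5 was lower than with IRX3_WT in both mutants, by 0.24 with IRX3_S361A and 0.20 with IRX3_S389A. Its libraries read 5168, 5299 and 5504 with GFP, 5546, 5523 and 5144 with IRX3_WT, 4604, 4506 and 4606 with IRX3_S361A and 4745, 4565 and 4797 with IRX3_S389A, so both mutants lay below GFP as well.

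Chst11, which sulfates chondroitin, was set apart in the IRX3_S389A libraries, as the direct tests against each other group show. It had 509, 476 and 484 normalized counts with GFP, 550.3, 526 and 537 with IRX3_WT, 534, 523 and 506 with IRX3_S361A and 723, 703 and 679.9 with IRX3_S389A. The IRX3_S389A libraries were above all others. The gene is at ENSMUSG00000034612.7, chromosome 10, 82985498 to 83195900 in GRCm38. Chst11 rose by 0.38 against IRX3_WT (SE 0.07, limma adjusted p = 6.51e-05), by 0.52 against GFP (SE 0.07, limma adjusted p = 5.4e-08) and by 0.43 against IRX3_S361A (SE 0.07, limma adjusted p = 1.64e-05). The differences of IRX3_WT and IRX3_S361A from GFP were 0.14 and 0.09 (limma adjusted p = 0.11 and 0.373).

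**Figure D4:**
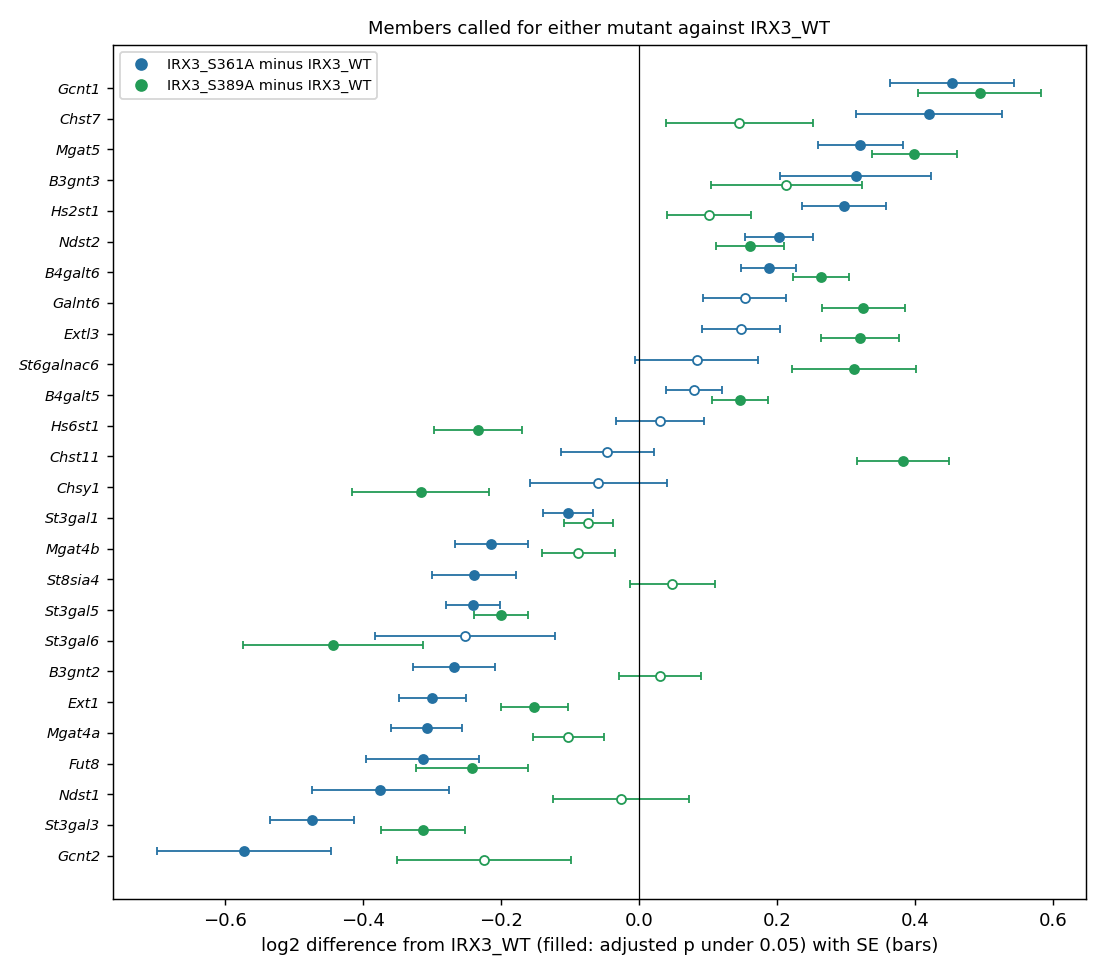
Log2 differences of IRX3_S361A (blue) and IRX3_S389A (green) from IRX3_WT, with SE, for the members called in either comparison, filled where called. Gcnt1 and Mgat5 lie to the right for both mutants and St3gal3 to the left, while Chst11 and Hs6st1 are called for IRX3_S389A and Ndst1, St8sia4 and Hs2st1 for IRX3_S361A.

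Against GFP, 29 of 72 members were called with IRX3_S361A (11 higher, 18 lower, beside 25.9% of all genes, 14.9% higher and 10.9% lower) and 36 with IRX3_S389A (15 higher, 21 lower, beside 35.0%, 18.8% higher and 16.2% lower). As shares of the members these are 40.3% and 50.0%. At 1.5-fold or more 8 of 72 members were called with IRX3_S361A, beside 743 of all 13369 genes (5.56%). With IRX3_S389A these were 12 of 72 members, beside 1362 of all 13369 genes (10.2%). Under equal library totals the counts were 8 higher and 27 lower for IRX3_S361A and 11 higher and 33 lower for IRX3_S389A, with the median of all genes at -0.11 and -0.17. All 3 comparisons with GFP use the same GFP libraries. St6gal1 differed from GFP by -1.29, -1.06 and -1.20 with IRX3_WT, IRX3_S361A and IRX3_S389A, B3gnt8 by -1.34, -1.17 and -0.88, and Chst14 by -0.81, -0.59 and -0.99, in the same order. For these 3 genes no difference between a mutant and IRX3_WT was called, which does not show that the constructs act alike: for St6gal1 the differences were 0.22 and 0.08 with an SE of 0.17. For St3gal3 the values against GFP were 0.84, 0.36 and 0.52, and for Ext1 0.77, 0.47 and 0.61. Chst15, at low counts, rose with IRX3_S389A (39.3, 32.2 and 26.4 against 15.8, 6.45 and 16.9 with GFP, 1.34, limma adjusted p = 0.00376), and the call ended without GFP replicate 2 (0.0588).

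**Figure D5:**
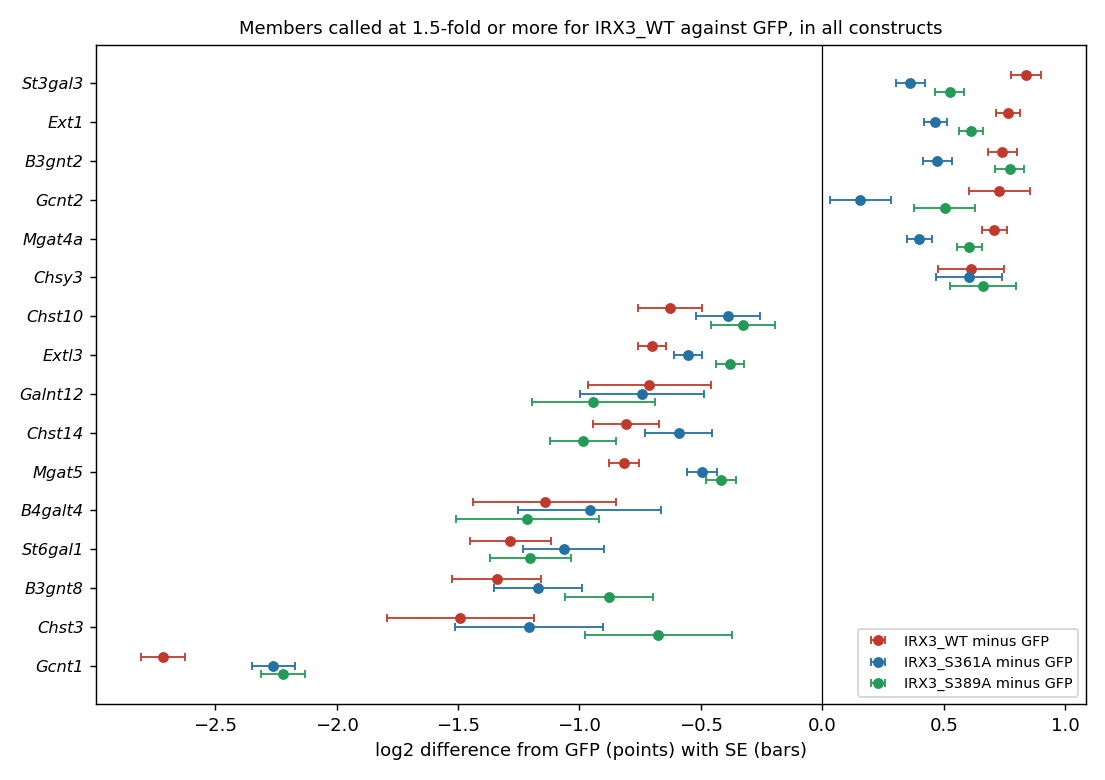
Log2 differences from GFP, with SE, for the members called at 1.5-fold or more with IRX3_WT, drawn for all 3 IRX3 constructs, which share the GFP libraries. Galnt9 is left out because its GFP values admitted it. Gcnt1 is lowest at -2.71, -2.26 and -2.22, and St3gal3 reaches 0.84 with IRX3_WT against 0.36 and 0.52 with the mutants.

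Between the mutants, 10 of 72 members were called (8 higher and 2 lower with IRX3_S389A), 13.9% beside 10.2% of all genes (7.00% higher, 3.16% lower), a share near the background. The count was 5 without IRX3_S361A replicate 3, 5 without IRX3_S389A replicate 1 and 6 without IRX3_S389A replicate 3, and under equal library totals the split was 5 higher and 7 lower. The calls that held in every fit without 1 library were those of B3gnt2 (0.30), Chst11 (0.43) and St8sia4 (0.29), higher with IRX3_S389A, and Hs6st1 (-0.26), lower. St8sia4 had 686 to 749 normalized counts with IRX3_S361A and 827 to 938 with IRX3_S389A. Irx3 RNA was higher with IRX3_S361A than with IRX3_S389A, so between the mutants its amount and the changed serine cannot be told apart.

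Genes that feed or neighbour these enzymes were read from fixed lists. Of 36 genes of sugar-nucleotide and sulfate-donor supply, 34 were tested, and 7 fell and 4 rose with IRX3_WT against GFP, 32.4% beside 39.6% of all genes. Gne, the first enzyme of sialic acid synthesis, had 157, 147 and 158 normalized counts with GFP, 79.7, 80.0 and 92.2 with IRX3_WT, 105, 107 and 105 with IRX3_S361A and 89.9, 99.6 and 92.5 with IRX3_S389A, and fell by 0.87 with IRX3_WT (limma adjusted p = 2.69e-06). Nans, a later enzyme of the same route, fell by 0.44 and the fucokinase gene Fuk by 0.62, while Papss2, which makes the sulfate donor, rose by 0.76. Of 10 N-glycan trimming genes 2 rose and 2 fell (40%, the background share), with the Golgi mannosidase gene Man2a1 up by 0.41 and Man1c1 down, at -0.48. Of 45 further glycosyltransferases and modifying enzymes, 35 were tested, 10 rose and 7 fell (48.6%). Lfng, the Fringe enzyme that extends fucose on Notch receptors, had 576, 570.0 and 553 with GFP, 139, 120.5 and 117 with IRX3_WT, 108, 150.1 and 159.8 with IRX3_S361A and 111, 119 and 117 with IRX3_S389A. Each IRX3 group lay below every GFP library, and Lfng differed from GFP by -2.17, -2.03 and -2.29 with the 3 constructs. The dermatan epimerase gene Dse rose by 0.30, its relative Dsel by 0.55 and the tyrosine sulfotransferase gene Tpst1 by 0.39 with IRX3_WT.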

How the data were processed

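RNA of 12 libraries was measured by sequencing. Per the submitters' processing notes, Trimmomatic, HISAT2 2.1.0, StringTie 1.3.5 and mm10 were used. How reads were counted, with which strand setting and how they were normalized is not given in the sources used here. Although the table is named raw counts, the deposited values are a normalized signal, read from the values themselves as gene counts divided by 1 size factor per library, since 100% of them are whole multiples of 1 step per column (tolerance 1e-06). Whole reads are claimed as recovered for 9 libraries, and in the other 3 the step lies within 1% of 1. Without strand, overlapping genes cannot be told apart, and 5 members (B3gnt2, Hs3st3a1, Galnt2, St3gal6 and Galnt6os) share at least 20% of exon bases with another gene.

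Symbols came from GENCODE M21, built on GRCm38 like mm10, for 99.5% of IDs. limma 3.58.1 (R 4.3.3; trend and robust) on log2(value + 1) was fitted to 13369 genes at 10 or more in 3 libraries, with all 4 groups and 8 residual degrees of freedom. The read-based tests used edgeR 4.0.16 and DESeq2 1.42.0; the code was tested on simulated data. Alternatives were pseudocounts, filters, scalings, the 2 groups alone, a replicate block and leaving out each library. Members, role groups and lists were chosen with earlier results of these data known. Named members are, per comparison, up to 8 rises and 8 falls of 1.5-fold or more without overlap of the groups, per role the 2 with the smallest p over 4 groups and the most abundant, and up to 4 genes per neighbouring list; others were named to complete a role or after their values were seen. Promoters are from RefSeq, GRCm38.p6.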

Additional observations from a re-analysis of the deposited data

How the results depend on the processing

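Members called, Galnt9 included, were 38, 29, 36, 18, 16 and 10 for wild type, S361A and S389A against GFP, then S361A and S389A against wild type, and last S389A against S361A (IRX3 constructs). In the same order the edgeR quasi-likelihood test gave 38, 29, 39, 18, 17 and 10, DESeq2 35, 25, 35, 17, 14 and 9, equal library totals 48, 35, 44, 23, 17 and 12 and no filter on low values 36, 25, 34, 17, 13 and 7. With edgeR on the 9 libraries whose whole reads were recovered, chosen after seeing the data, the counts were 38, 20, 35, 12, 12 and 3, with 2 fewer IRX3_S361A libraries and 1 fewer IRX3_S389A library. IRX3_S361A then has 1 library, assumed to vary like the other groups. Without 1 library at a time they ran from 33 to 39, 23 to 30, 33 to 38, 15 to 18, 10 to 18 and 5 to 11, and 31, 19, 26, 15, 9 and 4 calls held in every such fit. Over the 4 groups 47 members were called, and 41 to 48 without 1 library. With the replicate number as a block the counts were 38, 29, 36, 17, 16 and 8. The labels share only a number: correlations of same-numbered libraries' deviations from their group means ran from -0.0410 to 0.0297, so the block was not used. The 10 calls between the mutants fell to 5 without IRX3_S361A replicate 3 or IRX3_S389A replicate 1. Pseudocounts of 0.5 and 5 ended no call among 89 differences of named members, the block 2, edgeR on all 12 libraries 1, DESeq2 3, no filter 5, equal library totals 6, edgeR on the 9 libraries 16 and leaving out 1 library 2 to 8. The IRX3_WT difference of Mgat1 from GFP turned to -0.0090 under equal library totals, a scaling that lowers all differences in that comparison. Depth limits the weak members: 3 reads equal 2.67 to 3.41 normalized counts, so differences of Chst3, Chst15, Galnt9 and Gcnt7 rest on few reads, and for members not called a difference was not detectable at this depth and replication.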

Other observations

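Proteins that carry these glycans, and enzymes that take glycans apart, were read in the same fit. Of 20 carrier genes 16 were tested, and 9 rose and 3 fell with IRX3_WT against GFP (beside 21.0% and 18.6% of all genes). Sdc4, a syndecan that bears heparan sulfate, had 10430.5, 10921 and 10634 normalized counts with GFP, 19691, 20765 and 18738 with IRX3_WT, 15907, 16510.0 and 15818 with IRX3_S361A and 18259, 18474 and 19600.4 with IRX3_S389A, so every IRX3 library lay above GFP (limma log2 difference with IRX3_WT 0.89). Cd44, the hyaluronan receptor, rose by 0.67, 0.38 and 0.44 on the log2 scale with IRX3_WT, IRX3_S361A and IRX3_S389A, and Sdc1 by 0.41, 0.54 and 0.60. The glypican gene Gpc1 was highest with IRX3_S389A (1737, 1674 and 1597, against 1134 to 1292 with IRX3_S361A, 1081 to 1253 with IRX3_WT and 717 to 848 with GFP), and its difference from IRX3_WT was 0.54 (limma adjusted p = 1.02e-07).

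Of 27 glycan-removing genes 23 were tested, and 10 fell and 1 rose with IRX3_WT against GFP, beside the same shares of all genes. Sgsh, a lysosomal enzyme of heparan sulfate breakdown, had 90.9, 105 and 86.4 with GFP, 40.4, 34.3 and 30.7 with IRX3_WT, 50.6, 68.6 and 65.3 with IRX3_S361A and 56.8, 37.2 and 38.6 with IRX3_S389A, a difference of -1.40 with IRX3_WT (limma adjusted p = 6.03e-07). The lysosomal mannosidase gene Man2b1 and the fucosidase gene Fuca2 fell by 0.20 and 0.27. The riser was Hpse, the heparanase gene, by 0.32 with IRX3_WT and by 0.55 with IRX3_S389A, and with IRX3_S361A its difference from GFP was 0.04 and was not called (adjusted p = 0.734).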
